A study of Mus musculus with 28 samples.

Results

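The WT cells of days 4, 4.5 and 5 of an embryoid body (EB) differentiation were compared across the step that follows day 4. EBs are floating aggregates of mouse embryonic stem cells (ESC), here grown in serum-free medium with VEGF, BMP4 and Activin A so that they form mesoderm, blood and vessel cells. Members were all annotated cells of 4 WT libraries, 5445 of the 31596 cells of the series: 1443 at day 4 and 445 at day 4.5 in the first experiment (exp1), and 2818 at day 4 and 739 at day 5 in the second (exp2). Each later library was set against the day 4 library of its own experiment, an EB differentiation of its own. Days 4.5 and 5 had 1 library each, from different experiments, so that a difference between day 4.5 and day 5 cannot be told apart from a difference between experiments.

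The 4 libraries came from a Runx1Venus Eomes mCherry-degron ESC line. WT therefore stood for cells that carry the degron on Eomes, a T-box factor of the primitive streak, and that received the vehicle DMSO from day 3, not for cells without the alleles. Eomes-KD cultures of the same line received 100 nM dTAG-13, the compound that degrades the tagged protein. The labels and the study's text differ on whether the treatment ended at day 4 or at day 5. EBs were divided at day 4 into new medium with the same 3 factors, so the step also spans that handling. RNA and open chromatin were read from the same nuclei with the 10x Multiome assay, and each nucleus is called a cell here.

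In the mouse embryo, cells leave the epiblast through the primitive streak and become nascent mesoderm. The earliest of them form extraembryonic mesoderm, which gives rise to the allantois, the stalk that becomes the umbilical vessels, and to mesoderm of the yolk sac, whose blood islands hold the first blood cells. Primitive erythroid cells, megakaryocyte progenitors and endothelium are among the early cell types of the yolk sac.

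Every cell of the table carried 5 annotations by the authors. An atlas label and an extended atlas label were transferred from reference maps of the mouse embryo by the nearest reference cells, together with an embryonic stage. The MOFA cluster was found by clustering the cells of all libraries on RNA and chromatin, and the cell type was assigned to the cluster. The clusters and types were thus built from the same cells, whereas the labels and stages referred to an outside map. No values of single genes were analysed here, so labels and types were not checked against marker genes, and all results are shares of annotated cells, not numbers of cells in a culture. Total RNA counts per library lay between 7262460 (day 4.5) and 35951533 (day 4, exp2). A count of 0 allowed a share of up to 0.674% at day 4.5, the smallest library, and 0.106% at day 4 of exp2, the largest. Intervals in the text are 95% Wilson intervals for shares and exact counting intervals for ratios, and they cover counting error only. Among the 4 libraries, 9 cell barcodes occurred in more than 1 library.

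Of the 29 atlas labels of the table, 20 occurred in the 4 WT libraries, 13 of them at 1% or more of a library. At both later days the labels of the streak and early mesoderm were scarcer, and allantois, endothelial and later blood labels more frequent, than at day 4. In the count test (edgeR, quasi-likelihood, Benjamini-Hochberg), which contrasted the mean of days 4.5 and 5 with day 4, 4 of 20 labels passed (20% of those tested), all of them lower later. The labels tested left out Erythroid2 and Gut, which were too rare over the 12 libraries of the fit, and included Caudal epiblast and Somitic mesoderm, which held no cell in the 4 WT libraries. With the experiment as a block in the same test, 8 of 20 passed (40%), 4 higher and 4 lower. Since the later days had 1 library each, the spread came from the days with 2 libraries. Without either WT day 4 library, or any Eomes-KD library of days 3.5 and 4, 2 of the 4 labels remained called, Mixed mesoderm and Surface ectoderm being lost. With TMM factors none passed (5 at an unadjusted p under 0.05), and limma, fitted to arcsine square root shares, called 10, 5 higher and 5 lower. Beside the plain shares, TMM factors moved the median log2 change of all atlas labels by 0.19, of the extended labels by -2.07, of stages by -0.21, of types by 0.78 and of clusters by 0.03, and DESeq2 moved the extended labels by 0.89 and the clusters by 0.12, so every change in the text is relative to all annotated cells of the library.

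The Allantois label had the largest difference in percentage points in both pairs. It was carried by 3.53% of cells (2.70 to 4.62%) at day 4 and 23.4% (19.7 to 27.5%) at day 4.5 in exp1. In exp2 it was carried by 4.19% (3.51 to 4.99%) at day 4 and 37.9% (34.5 to 41.4%) at day 5. Both later libraries lay far above both day 4 libraries, which differed by less than 1 percentage point. The share was 6.61-fold higher in exp1 (4.69 to 9.44) and 9.05-fold higher in exp2 (7.27 to 11.3). The log2 change was 2.94 ± 0.77 (SE) with an adjusted p of 0.0992 in edgeR, and 2.88 ± 0.65 with an adjusted p of 0.0050 with the experiment as a block.

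The label ExE mesoderm, the extraembryonic mesoderm of the atlas, went the other way. It held 17.5% of cells at day 4 and 6.74% at day 4.5 in exp1, and 36.6% at day 4 and 5.68% at day 5 in exp2. The day 4 libraries differed by a factor of more than 2 here, while the later libraries were alike. The log2 change was -2.13 ± 0.74 (adjusted p = 0.106 in edgeR) and -2.05 ± 0.63 with the block (adjusted p = 0.0171). The Mesenchyme label was split between the experiments, at 13.1% and 14.6% in exp1 and 9.62% and 2.57% in exp2, with an adjusted p of 0.517 in edgeR. As a sum, the extraembryonic mesoderm labels (Allantois, ExE mesoderm and Mesenchyme) held 34.1% and 44.7% of cells in exp1 and 50.4% and 46.1% in exp2. The sum moved in opposite directions in the pairs, whereas its members exchanged places in both.

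**Figure D1:**
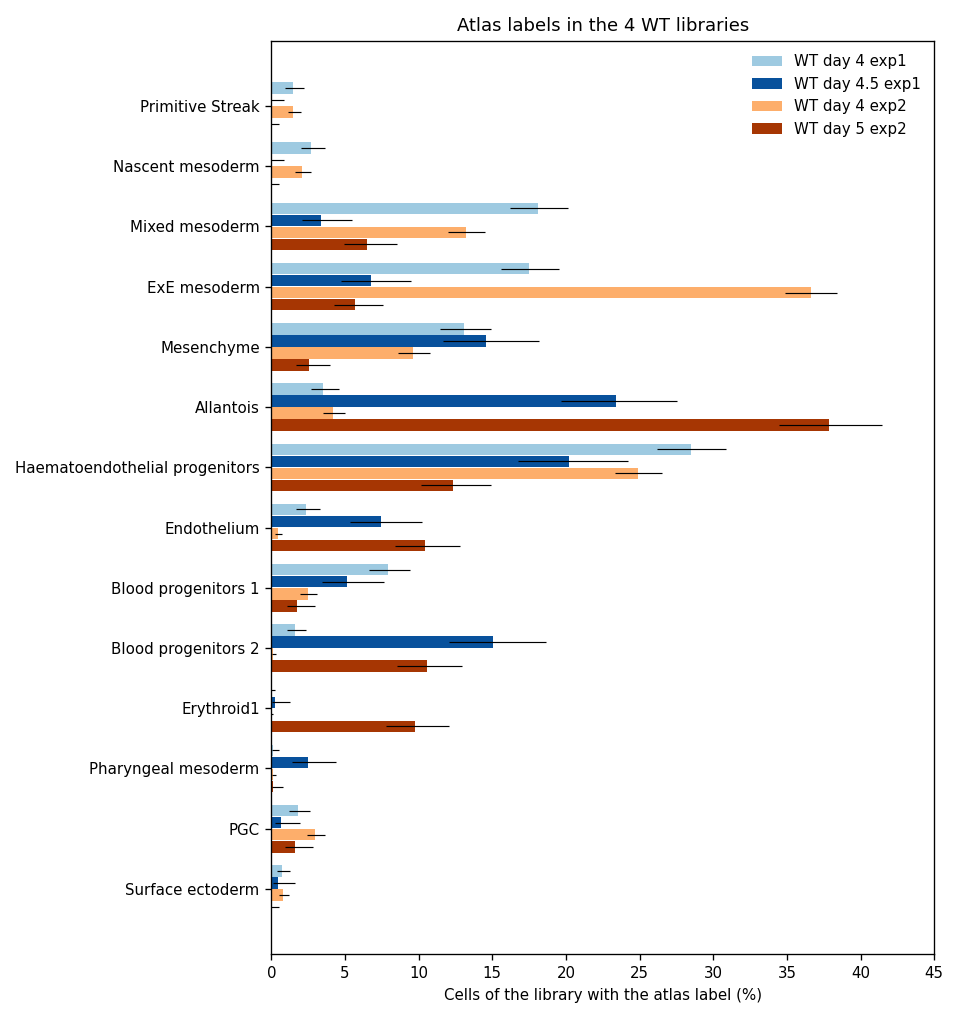
Bars give the share of cells (%, horizontal axis) with each of 14 atlas labels in the 4 WT libraries, and lines give 95% Wilson intervals. Allantois, Endothelium and Blood progenitors 2 are longer in both later libraries (dark bars) than in both day 4 libraries (pale bars), Erythroid1 is seen almost only at day 5, and Primitive Streak and Nascent mesoderm have no cell later.

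The labels of the streak and of the first mesoderm fell. Nascent mesoderm, the mesoderm that has just left the streak, held 2.70% and 2.09% of cells at day 4 and no cell at day 4.5 or day 5. Against the floor of 3 cells per library, it was at least 4.01-fold lower in exp1 and at least 5.16-fold lower in exp2 (adjusted p = 0.0017, edgeR). Primitive Streak held 1.46% and 1.49% at day 4 and no cell later, at least 2.16-fold and 3.67-fold lower (adjusted p = 0.0017). Mixed mesoderm, a label of mesoderm not yet assigned to a lineage, persisted in part. It held 18.1% at day 4 and 3.37% at day 4.5 in exp1, and 13.2% at day 4 and 6.495% at day 5 in exp2, a log2 change of -1.74 ± 0.40 (adjusted p = 0.0305). The fall was 5.37-fold in exp1 (3.19 to 9.73) and 2.03-fold in exp2 (1.502 to 2.81). Together the early labels held 22.3% and 16.9% of cells at day 4, 3.37% at day 4.5 and 6.495% at day 5. Of the 5 early labels tested 3 passed, all lower, beside 4 of all 20 labels. Epiblast held 0.0693% and 0.0710% at day 4 and no cell later and did not pass, and Caudal epiblast held no cell in the 4 libraries. The median log2 change of the 5 was -3.78, beside -1.04 over all 20 labels. That median was the value of Epiblast itself (-3.78 ± 4.19), which rested on 1 and 2 day 4 cells. It is therefore no measure of a fall common to the early labels.

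Surface ectoderm, at 0.693% and 0.781% at day 4, 0.449% at day 4.5 and no cell at day 5, was the fourth label to pass (adjusted p = 0.0305). It rested on few cells, and its adjusted p was 0.0628 with the block. The adjusted p of Mixed mesoderm stayed under 0.05 in 9 of 21 alternative settings, and those of Nascent mesoderm and Primitive Streak in 18 of 21 each.

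The hematoendothelial labels changed in make-up. Haematoendothelial progenitors, the label of cells that give rise to endothelium and blood, held 28.5% and 24.9% of cells at day 4, 20.2% at day 4.5 and 12.3% at day 5. Its log2 change of -0.76 ± 0.91 did not pass (adjusted p = 0.519 in edgeR, 0.289 with the block), although both later libraries were below both day 4 libraries. Endothelium, the label of vessel lining cells, held 2.36% at day 4 and 7.42% at day 4.5 in exp1, and 0.426% at day 4 and 10.4% at day 5 in exp2. The ratio was 3.15 in exp1 (1.89 to 5.24) and 24.5 in exp2 (13.2 to 49.4), and the log2 change was 3.14 ± 0.63 with the block (adjusted p = 0.0031) and 2.68 ± 1.57 without (adjusted p = 0.314). The sum of both labels was 30.8% (28.5 to 33.3%) and 27.6% (23.7 to 32.0%) in exp1. In exp2 it was 25.3% (23.7 to 26.9%) and 22.7% (19.9 to 25.9%). The intervals of the sum overlapped in both pairs, and the sum was not tested. The endothelial share of the group was higher later in both pairs.

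The earlier and the later blood labels differed. Blood progenitors 1, the earlier blood label of the atlas, held 7.90% and 5.17% in exp1 and 2.48% and 1.76% in exp2, and did not pass (adjusted p = 0.531). Blood progenitors 2, the later one, held 1.59% and 15.1% in exp1 and 0.106% and 10.6% in exp2. Its ratio was 9.45 in exp1 (5.81 to 15.9). In exp2 it was 99.1, with an interval of 32.7 to 491, as only 3 day 4 cells carried the label. The log2 change was 4.80 ± 0.71 with the block (adjusted p = 0.0017), against an adjusted p of 0.263 without.

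Erythroid1, the first primitive erythroid label, was not detected in either day 4 library and held 1 cell (0.225%, 0.0397 to 1.26%) at day 4.5 and 72 cells (9.74%, 7.81 to 12.1%) at day 5. In exp2 this was at least 91.5-fold above the floor of 3 cells at day 4 (adjusted p = 0.0171 with the block, 0.177 without). Erythroid2 was seen in 6 cells of day 5 (0.812%) and was too rare to be tested. The blood labels together held 9.49% and 20.4% of cells in exp1 and 2.59% and 22.9% in exp2. Genes for hemoglobin were left out of the label transfer by the authors, so that these calls rest on other genes. The later libraries thus had similar shares of blood labels, of which the erythroid part was close to nil at day 4.5 and 78 of 169 cells at day 5.

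The remaining labels were small. PGC, the primordial germ cells, held 1.802% and 0.674% in exp1 and 2.98% and 1.62% in exp2, lower in both pairs (log2 change -1.19 ± 0.60, adjusted p = 0.217). Pharyngeal mesoderm, which forms muscle and connective tissue of the head and heart field, was found in 2.47% of day 4.5 cells (11 cells) and in 0.139% or less of the other 3 libraries (adjusted p = 0.182). Among the 20 labels present, 6 occurred at day 4 only and 2 at the later days only. Over all 20 labels tested, the later libraries lay outside both day 4 libraries for 14 (70%), 4 above and 10 below. With 2 against 2 libraries, order alone gives such a placement with a probability of 0.333. Among the 10 below, Def. endoderm, Epiblast and Rostral neurectoderm had 6 or fewer cells in each day 4 library and none later. Their day 4 shares lay under the share that a count of 0 allowed in the later library.

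The extended atlas, with 38 labels in the table and 31 in the 4 libraries, resolved blood and vessel cells further. Of 26 labels tested, 1 passed in edgeR (3.85%), Primitive Streak (1.46% and 1.45% at day 4, no cell later, adjusted p = 0.0356). With the block 10 passed (38.5%), 7 higher (26.9%) and 3 lower (11.5%), whereas with TMM factors 8 passed, all lower. With 1 library left out in turn, none passed when any of the 4 WT libraries was left out or any WT or Eomes-KD library of day 3.5, and 2 passed without either Eomes-KD library of day 4. The label Allantois held 5.75% and 23.8% in exp1 and 7.31% and 38.2% in exp2 (adjusted p = 0.253 in edgeR, 0.0426 with the block). Lateral plate mesoderm, the mesoderm of body wall and vessels, held 40.3% and 22.0% in exp1 and 50.6% and 14.8% in exp2, the largest single loss in points, but did not pass either fit (adjusted p = 0.256 and 0.0697). At day 4 this extended label was carried by most cells of the atlas label ExE mesoderm (86.1% in exp1, 91.0% in exp2). The same held for the atlas label Mesenchyme (97.9% and 99.3%). Its loss is therefore not separate from that of ExE mesoderm. Nascent mesoderm held 7.48% and 0.674% in exp1 and 7.31% and 0.812% in exp2 and passed with the block (adjusted p = 0.0110, against 0.0943 without).

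The extended blood labels were few at day 4. Blood progenitors held 1.59% and 13.7% in exp1 and 0.142% and 6.63% in exp2 (adjusted p = 0.0110 with the block). EMP, the erythro-myeloid progenitors of the yolk sac, held 0.624% and 2.47% in exp1 and 0.0710% and 3.11% in exp2 (adjusted p = 0.0186 with the block). Both were more frequent in either later library than in either day 4 library. Erythroid was found in 1 cell of day 4.5 (0.225%) and in 68 cells of day 5 (9.20%), with an adjusted p of 0.0431 with the block. Megakaryocyte progenitors, the precursors of platelet-forming cells, held 0.449% at day 4.5 and 1.49% at day 5 with no cell at day 4 (adjusted p = 0.0337 with the block). MEP, the progenitors common to megakaryocytes and erythroid cells, was found only at day 5, at 1.35%, or at least 12.7-fold above the floor of its day 4 library. Without the block none of these 5 passed edgeR, where their adjusted p ranged from 0.140 to 1.00. None of the erythroid, megakaryocyte and MEP labels was seen at day 4.

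The endothelial labels of the extended atlas differed among themselves. Venous endothelium held 3.19% and 5.84% in exp1 and 0.284% and 6.77% in exp2 (adjusted p = 0.0177 with the block, 0.464 without). Endocardium, the inner lining of the heart, had no cell at day 4, 3 cells at day 4.5 (0.674%) and 25 cells at day 5 (3.38%; adjusted p = 0.0177 with the block, 0.140 without). Allantois endothelium held 6.65% and 10.6% in exp1 and 7.81% and 6.36% in exp2, with no common direction (log2 change 0.18 ± 1.07, adjusted p = 0.906). Haematoendothelial progenitors held 28.8% and 13.03% in exp1 and 18.5% and 6.22% in exp2, a ratio of 0.453 (0.338 to 0.598) and 0.336 (0.243 to 0.455), yet did not pass (adjusted p = 0.353, 0.0879 with the block).

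Of the other extended labels at 1% or more of a library, Mesenchyme (3.37% at day 4.5 against 0.208% at day 4 of exp1, and 0.0710% and no cell in exp2) differed between the pairs. PGC (1.802%, 0.674%, 3.02% and 1.62% in the order day 4 and 4.5 of exp1, day 4 and 5 of exp2) followed the atlas label of that name. Paraxial mesoderm, which forms the somites, had 1.06% at day 4 of exp2 as its highest share and no cell at day 5, and did not pass (adjusted p = 0.253). Non-neural ectoderm stayed under 1% in each library and passed with the block only (adjusted p = 0.0443). The other 14 labels stayed under 1% and passed neither fit or were too rare to be tested.

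Stages shifted towards later embryos. Cells were placed at E7.0 to E8.5 with 1 exception, a cell of E6.5 at day 4 of exp2. Cells at or before E7.25 made up 39.8% (37.4 to 42.4%) at day 4 and 6.74% (4.76 to 9.46%) at day 4.5 in exp1, and 32.6% (30.9 to 34.4%) and 13.3% (11.005 to 15.9%) at days 4 and 5 in exp2. Cells at or after E8.25 made up 4.71% and 28.1% in exp1 and 9.51% and 40.2% in exp2. Later libraries lay beyond both day 4 libraries at both ends of the range. None of the 8 stages passed edgeR (0% of those tested), and 3 had an unadjusted p under 0.05, whereas DESeq2 called 3 and the block fit 1 (12.5%). Without either Eomes-KD library of day 3.5 5 stages passed, and without either of day 4 2 did.

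Among single stages, E8.5 held 1.59% and 14.8% in exp1 and 0.710% and 12.0% in exp2, a log2 change of 3.55 ± 1.01 (adjusted p = 0.0609 in edgeR, 0.0130 with the block). E8.25 held 3.12% and 13.3% in exp1 and 8.80% and 28.1% in exp2 (adjusted p = 0.133). E7.25 held 34.8% and 5.84% in exp1 and 28.4% and 11.6% in exp2 (log2 change -1.94 ± 0.67, adjusted p = 0.0685), and E7.0 5.06% and 0.899% in exp1 and 4.15% and 1.62% in exp2 (adjusted p = 0.0747). The stages at both ends of the range thus differed from day 4 in the same direction in both pairs. In the middle of the range, E8.0 held 15.6% and 31.5% in exp1 but 32.6% and 34.1% in exp2. E7.75, the only stage with opposite directions in the pairs, held 19.5% and 21.6% in exp1 and 10.9% and 9.34% in exp2, and E7.5 held 20.3% and 12.1% in exp1 and 14.3% and 3.11% in exp2, with adjusted p values of 0.157 or more for all 3.

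The mean stage was E7.55 at day 4 and E7.94 at day 4.5 in exp1, and E7.67 at day 4 and E7.99 at day 5 in exp2. The difference was 0.386 embryonic days between days 4 and 4.5 of culture and 0.317 between days 4 and 5. An exact permutation test of 2 libraries against 2 cannot go below a two-sided p of 0.333, and no other test of mean stages was run, so they are given as descriptions. For comparison, the mean stage of WT cells was E7.19 and E7.22 at day 3 and E7.20 and E7.21 at day 3.5. Mean stages of the Eomes-KD libraries were E7.89 and E7.83 at day 4, E8.06 at day 4.5 and E8.17 at day 5, each later than its WT counterpart.

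The difference in mean stage was divided into the part within atlas labels (labels with 20 or more cells in both libraries of a pair) and a remainder. The remainder holds the part that comes with the label shares, and also any change within the labels left out, so the 2 were not separated fully. In exp1 the remainder was 0.213 days and 0.173 days lay within the labels compared, and all 7 of these were placed later at day 4.5. Mesenchyme moved from E7.48 to E7.78, Haematoendothelial progenitors from E7.58 to E7.81 and Blood progenitors 2 from E7.74 to E7.96. In exp2 the remainder was 0.327 days and -0.0107 days lay within the labels compared, with 2 of 4 labels later at day 5. There, Haematoendothelial progenitors moved from E7.63 to E7.79, Allantois from E8.08 to E8.10, Mixed mesoderm stayed at E7.28, and ExE mesoderm was placed earlier, at E7.87 and E7.66. The labels compared covered 74.4% and 92.6% of the cells in exp1 and 78.9% and 62.4% in exp2. Haematoendothelial progenitors were thus placed later in both pairs and ExE mesoderm later in exp1 only, over sets of labels that differed between the pairs. Allantois was 0.164 days later in exp1 but nearly unchanged in exp2, at 0.0228 days with SDs over cells of 0.125 and 0.224. The difference between the experiments was not tested.

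**Figure D2:**
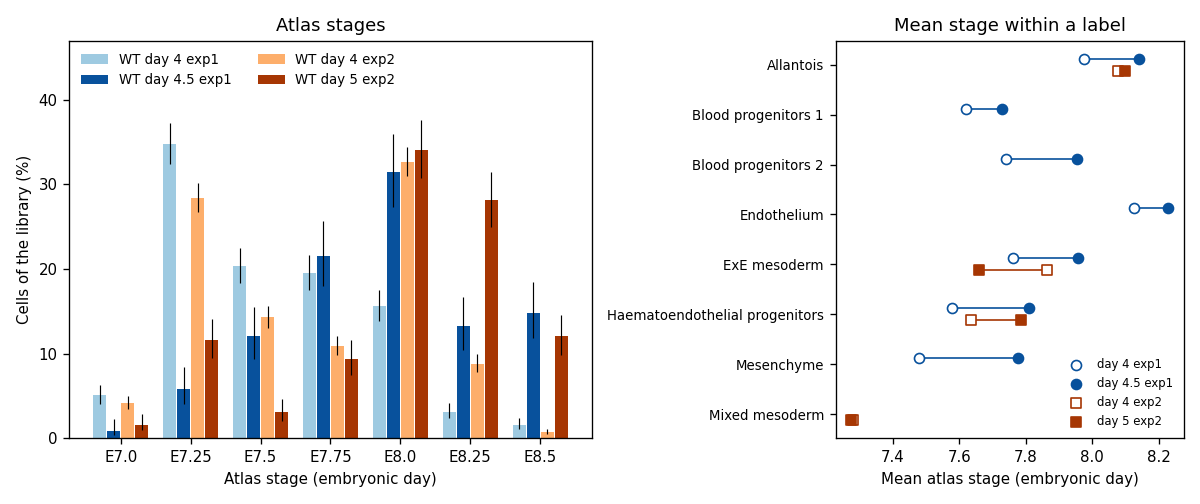
On the left, bars give the share of cells (%, vertical axis) at each atlas stage in the 4 WT libraries, with 95% Wilson intervals. On the right, the mean stage (embryonic day) of each atlas label with 20 or more cells in both libraries of a pair is shown at day 4 (open) and later (filled): all 7 labels moved later in exp1, whereas ExE mesoderm moved from E7.87 to E7.66 in exp2.

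What a stage held also differed. Cells placed at E8.0 at day 4 were mostly ExE mesoderm (46.2% in exp1, 60.1% in exp2). At the same stage Allantois was the largest label at day 4.5 (31.4%) and at day 5 (46.4%), and ExE mesoderm had 8.57% and 5.56%. E8.0 was thus a stage with near equal shares at days 4 and 5 of exp2 but with different labels. Cells at E8.5 carried the Endothelium label in 27.3% of cases at day 4.5 and 33.7% at day 5, and Allantois in 24.2% and 20.2%. At day 5, 34.8% of them were Blood progenitors 2. At day 4 of exp1, 60.9% of the 23 cells at E8.5 were Endothelium. Of the 86 cells at E7.25 at day 5, 52.3% had the cell type Allantois, a type in which the E8.0 and E8.25 stages together held 67.7% of day 5 cells.

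Cell types and clusters changed more sharply than labels. Of the 12 cell types, 9 passed edgeR (75% of those tested), 3 higher (25%) and 6 lower (50%), with 4 of them left without the day 4 library of exp2. Of 18 clusters, 11 passed (61.1%), 3 higher (16.7%) and 8 lower (44.4%), with 3 left without the day 4 library of exp2 and 5 without day 5. The higher types each were 1 cluster: Allantois (cluster 10), Endothelium (cluster 15) and Blood Progenitor (cluster 17). As types and clusters were defined on these same cells, their separation by day is in part built in, and they are given here as the frame for the labels.

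The Allantois type held 1 cell at day 4 of exp1 (0.0693%) and 18.9% at day 4.5, no cell at day 4 of exp2 and 46.5% at day 5 (adjusted p = 0.0064). Endothelium held 0.277% and 11.7% in exp1 and 0.106% and 19.9% in exp2 (log2 change 6.40 ± 1.37, adjusted p = 0.0160). Blood Progenitor held 0.693% and 16.4% in exp1 and 0.142% and 21.2% in exp2 (log2 change 5.59 ± 1.08, adjusted p = 0.0188). These 3 types made up 46.97% of day 4.5 cells and 87.7% of day 5 cells. Without the day 4 library of exp2 none of the 3 passed, and 4 types passed in all, each of them lower.

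HE, the hematoendothelial type (cluster 3), held 39.7% and 18.0% in exp1 and 31.3% and 0.812% in exp2 (log2 change -3.21 ± 1.03, adjusted p = 0.0295). Thus 80 HE cells remained at day 4.5 and 6 at day 5. Posterior Mes, the posterior mesoderm, held 8.247% and 0.674% in exp1 and 14.1% and 0.135% in exp2 (log2 change -5.18 ± 0.70, adjusted p = 0.0029). Primitive Streak fell from 2.43% to 0.225% in exp1 and from 2.77% to 0.135% in exp2 (adjusted p = 0.0034). HE Precursor, at 0.485% and 1.38%, and the early mesoderm types coded EOd, at 1.802% and 1.77%, and EOi, at 1.18% and 2.63% of day 4 cells, had no cell later (adjusted p of 0.0319, 0.0111 and 0.0057). Mesenchyme held 33.1% and 18.7% in exp1 and 36.9% and 6.90% in exp2 (adjusted p = 0.0692, and 0.0066 with the block). The PGC type was the same call as the PGC label.

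Allantois Precursor (cluster 12) was the one type with opposite directions, at 10.2% and 14.8% in exp1 and 5.89% and 2.71% in exp2, a ratio of 1.46 (1.07 to 1.96) and 0.459 (0.274 to 0.733). Allantois Precursor and Allantois cells stood side by side at day 4.5, with 66 and 84 cells, while day 5 had 20 and 344.

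The clusters with lower shares were those of the earlier types. Clusters 13 and 4, both Posterior Mes, held 2.77% and 7.06%, and 5.75% and 7.98%, at day 4. Cluster 13 had no cell later and cluster 4 kept 0.899% at day 4.5 and 0.135% at day 5. Clusters 0 and 14, of the EOd and HE Precursor types, and clusters 8 and 9, of the EOi type, had no cell at either later day. Cluster 11, of Primitive Streak, kept 1 and 2 cells. Cluster 6, the third cluster of EOi, held 1.73% and 2.13% at day 4 and 0.449% and 1.49% later (adjusted p = 0.139), and cluster 1, of EOd, held 1.32% and 0.390% at day 4 and no cell later (adjusted p = 0.0682, and 0.0027 with the block). Cluster 5, Mesenchyme, had nearly the shares of that type (adjusted p = 0.0784, and 0.0021 with the block). With the block 13 clusters and 10 types passed in all. Clusters 2 and 7, of Primitive Streak, held 0.142% or less, and cluster 16 held no cell in any of the 4 libraries. The cells of cluster 6 at days 4.5 and 5, 2 and 11 in number, were not typed EOi, since the cells of the PGC type were set apart by label.

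The same atlas label fell on different types before and after the step. At day 4, 95.9% (exp1) and 94.7% (exp2) of cells with the label Haematoendothelial progenitors were of the HE type. At day 4.5, 55.6% were HE and 27.8% Endothelium. At day 5, 4.40% were HE, 57.1% Endothelium and 33.0% Allantois. The label thus kept 12.3% of day 5 cells, whereas the type that held it at day 4 kept 0.812%. Likewise, the 34 cells of the Endothelium label at day 4 of exp1 were HE in 97.1% of cases, and those of day 5 were Endothelium in 97.4%. Of the Blood progenitors 2 label, 60.9% of 23 cells at day 4 of exp1 were HE and 39.1% Blood Progenitor, against 94.0% Blood Progenitor at day 4.5 and 89.7% at day 5. Blood progenitors 1, by contrast, was largely HE also at day 4.5 (69.6%, and 97.4% and 98.6% at day 4).

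**Figure D3:**
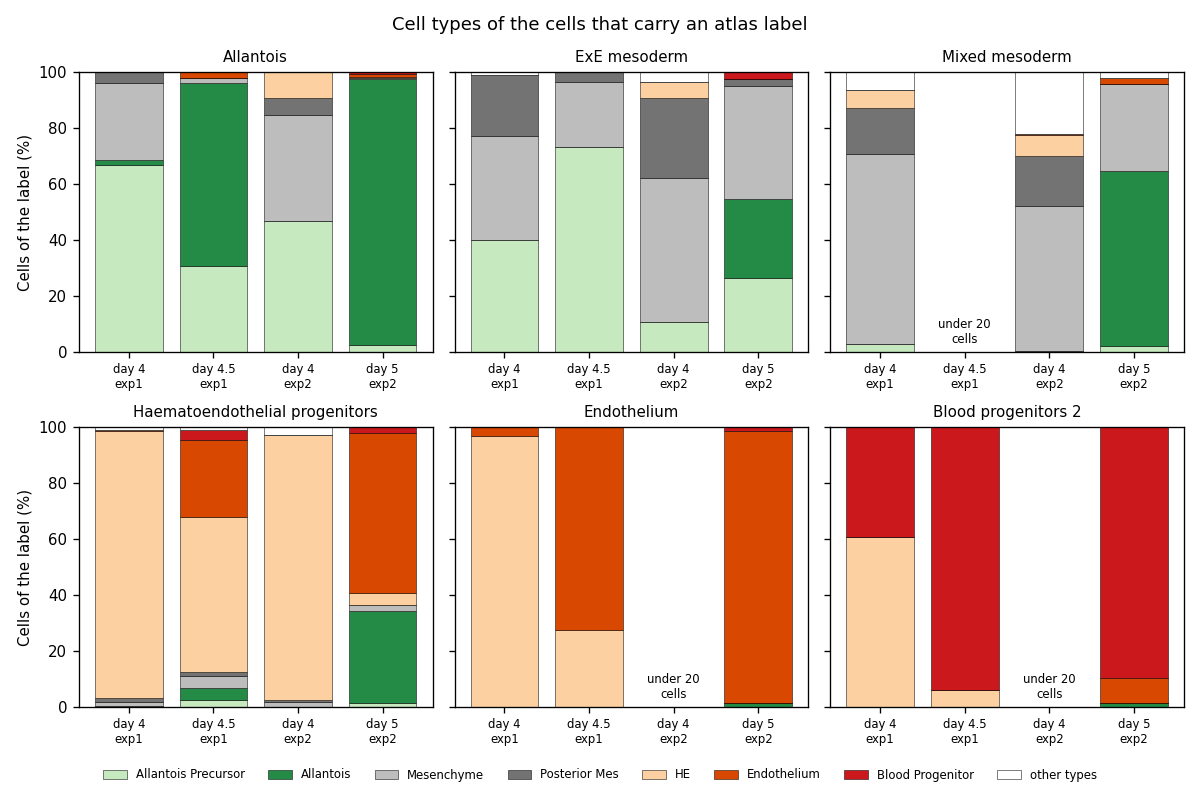
Each stacked bar gives the cell types (% of the cells that carry the label, vertical axis) of 6 atlas labels in the 4 WT libraries, where 20 or more cells carried the label. The HE type makes up 95.9% and 94.7% of the label Haematoendothelial progenitors at day 4 and 4.40% at day 5, and Mixed mesoderm at day 5 is 62.5% Allantois type.

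The extended labels of vessel cells also fell on different types before and after the step. All 96 cells of Allantois endothelium at day 4 of exp1 and 216 of 220 in exp2 were HE. At day 4.5, 51.1% were HE and 38.3% Endothelium, and at day 5 87.2% were Endothelium and 2.13% HE. The cells with this label thus sat mostly in another type at day 5 than at day 4. Venous endothelium was HE in 45 of 46 cells at day 4 of exp1, 6 of 26 at day 4.5 and none of 50 at day 5. Within the Endothelium type, Venous endothelium (38.5% and 32.7% at days 4.5 and 5), Allantois endothelium (34.6% and 27.9%) and Endocardium (3.85% and 17.01%) were the main vessel labels.

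The Allantois label was found in Allantois Precursor at day 4 (66.7% of its cells in exp1, 46.6% in exp2) and in Mesenchyme (27.5% and 38.1%). At day 4.5, 65.4% of it was Allantois and 30.8% Allantois Precursor, and at day 5 95.0% was Allantois. Seen from the type, Allantois cells carried the Allantois label in 81.0% of cases at day 4.5 and 77.3% at day 5. Allantois Precursor cells were mostly ExE mesoderm at day 4 (68.7% and 65.1%), with 23.1% and 33.1% Allantois, and at day 4.5 48.5% Allantois and 33.3% ExE mesoderm.

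At day 5, 30 of the 344 Allantois cells (8.72%) carried the label Mixed mesoderm and 30 the label Haematoendothelial progenitors. The former had a median label score of 0.480 and a mean stage of E7.26, against 0.880 and E8.11 for those with the Allantois label. Their RNA counts were alike (medians of 12405 and 12294), and their mitochondrial share was 2.28% against 2.38%. Their median doublet score was higher, at 0.465 against 0.325. For the Allantois cells with the label Haematoendothelial progenitors it was 0.56, and their ribosomal median was 10.2% against 6.68%. Whether mixed profiles played a part in these labels was not tested. The Allantois cells with the label Mixed mesoderm made up 62.5% of the 48 Mixed mesoderm cells of day 5. The early label that remained at day 5 was therefore for the most part on cells of a late type with a low score. At day 4, 68.2% (exp1) and 51.9% (exp2) of Mixed mesoderm cells were Mesenchyme.

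Within Blood Progenitor, labels differed between the later days. At day 4.5, 86.3% of 73 cells were Blood progenitors 2 and 1 cell was Erythroid1. At day 5, 44.6% of 157 cells were Blood progenitors 2 and 45.9% Erythroid1. Their mean stage was E7.93 ± 0.23 (SD over cells) at day 4.5 and E8.11 ± 0.24 at day 5. HE cells at day 4.5 still carried Haematoendothelial progenitors (62.5%) and Blood progenitors 1 (16 of 80 cells), as at day 4 of exp1 (68.8% and 19.4%).

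The median RNA count over all cells of a library differed from day 4 in opposite directions in the pairs. The median RNA count per cell was 23017 at day 4 and 15518 at day 4.5 in exp1, and 11270 at day 4 and 12898 at day 5 in exp2. The day 4 libraries thus differed from each other by more than either did from its later library. Genes per cell followed, with medians of 5699 and 4729 in exp1 and 4217 and 4441 in exp2. In cells of 10000 to 15000 RNA counts, medians of genes were close, at 4402 and 4315 in exp1 and 4352 and 4313 in exp2. From 20000 to 30000 counts they were 5863 and 5760.5 in exp1 and 6113 and 5790 in exp2, and in each of the 4 ranges the later library of both pairs had the lower median. At like depth genes per cell were thus lower later also in exp2, where the median over all cells was higher. Within labels, RNA counts were lower later in 7 of 7 labels of exp1 and higher in 3 of 4 of exp2. Within cell types they were lower later in 3 of 3 types of exp1 and in both types compared in exp2, Allantois Precursor (medians of 12437 and 11701.5) and Mesenchyme (10650 and 10267).

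The shares of mitochondrial and ribosomal RNA were lower later in both pairs. The mitochondrial median was 7.41% and 7.20% in exp1 and 4.755% and 3.20% in exp2, lower in 5 of 7 labels of exp1 and 4 of 4 of exp2. The Allantois label had 5.30% at day 4 and 2.38% at day 5 in exp2, the widest gap of these 4. The ribosomal median was 10.7% and 9.66% in exp1 and 9.23% and 7.57% in exp2, lower in 6 of 7 and 4 of 4 labels. For mitochondrial RNA the gap between experiments exceeded that within either.

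**Figure D4:**
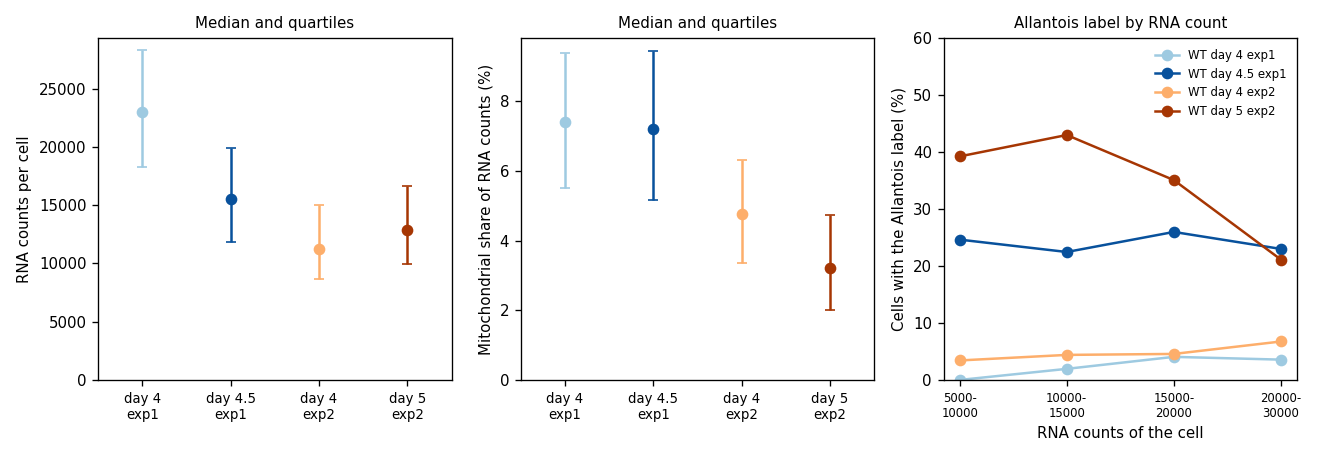
Points give the median RNA count and the median mitochondrial share (%) per cell in each WT library, with lines from the lower to the upper quartile, and the panel on the right gives the share of cells with the Allantois label (%) by the RNA count of the cell. The median RNA count was 23017 and then 15518 in exp1, and 11270 and then 12898 in exp2, while the Allantois label was more frequent later in each of the 4 ranges of RNA counts.

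Since depth differed, label shares were also compared within ranges of RNA counts. From 10000 to 15000 counts, the Allantois label held 1.95% and 22.5% in exp1 and 4.40% and 43.0% in exp2. From 20000 to 30000 counts it held 3.57% and 23.0%, and 6.75% and 21.1%. The label was thus more frequent later at like depth in both pairs. Mixed mesoderm depended on depth at day 4, with 38.3% of cells of 10000 to 15000 counts in exp1 and 13.7% of those of 20000 to 30000, and with 12.2% and 6.33% in exp2. It was lower later in each range of exp1, and in 3 of 4 ranges of exp2, the exception being 15000 to 20000 counts (7.93% and 8.77%). When the shallower cells of each library were left out, those at or under its median RNA count, none of the 20 atlas labels passed edgeR (6 with an unadjusted p under 0.05), and 7 of 18 clusters did.

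Scores of the labels, the share of the 25 nearest atlas cells that carried the label given, were higher later for the atlas label. The median was 0.680 and 0.800 in exp1 and 0.720 and 0.840 in exp2, and the share of cells with a score of 0.5 or more was 82.0% and 89.0% in exp1 and 81.8% and 89.4% in exp2. Within labels the median was higher later in 4 and lower in 2 of 7 labels of exp1, and higher in 1 and lower in 3 of 4 labels of exp2. Within the Allantois label it went from 0.600 to 0.840 in exp1 and from 0.600 to 0.880 in exp2. Within ExE mesoderm the score was lower later, at 0.600 and 0.520, and 0.680 and 0.560, as it was in exp2 within Haematoendothelial progenitors (0.920 and 0.800) and Mixed mesoderm (0.600 and 0.500). The median score of the extended label was 0.760 and 0.720 in exp1 and 0.760 in both libraries of exp2. That of the stage was 0.440 and 0.400, and 0.400 in both, and 18.9% to 24.9% of the cells of a library had a stage score of 0.5 or more. Doublet scores were somewhat higher later, with medians of 0.270 and 0.350 in exp1 and 0.190 and 0.250 in exp2, and the part of each of these measures in the label shifts was not tested.

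The step was set against the same step in Eomes-KD. The Allantois label held 9.50% at day 4 and 57.0% at day 4.5 in exp1, and 3.37% at day 4 and 71.5% at day 5 in exp2 of Eomes-KD, while ExE mesoderm held 57.5% and 22.5%, and 55.8% and 8.92%. The interaction of WT step and Eomes-KD step passed for none of 20 labels in edgeR (0%), with 2 at an unadjusted p under 0.05, while DESeq2 called 1 and limma on arcsine square root shares 3. Labels without a cell in several of the groups compared could not pass in edgeR, whatever the difference. Nascent mesoderm, Primitive Streak, Blood progenitors 2 and Erythroid1 were among them, so the count says nothing about these labels. For Allantois the WT step minus the Eomes-KD step was -0.37 ± 1.02 on the log2 scale (adjusted p = 1.00), and for ExE mesoderm it was -0.13 ± 1.00. For Mixed mesoderm it was 1.75 ± 0.57 (adjusted p = 0.438), with Eomes-KD shares of 8.74% and 2.03% in exp1 and 7.59% and 0.255% in exp2. Over 18 alternative settings, the interaction passed in 1 for Allantois, 1 for Mixed mesoderm and 0 for ExE mesoderm. The log2 scale compares ratios of shares, so a difference between the steps in percentage points was not tested. No Eomes-KD cell of these days carried a Blood progenitors 1, Blood progenitors 2 or Erythroid1 label, so the blood steps of WT had no counterpart to be compared with.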

How the data were processed

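Nuclei of 14 libraries were profiled with 10x Multiome (RNA and open chromatin), and 1 table of 31596 annotated cells with 28 columns was deposited, of which 16 were used. Per the submitters' processing notes and the study's methods, reads were processed with Cell Ranger ARC 2.0.1 on mm10. The authors removed cells of low quality and doublets by score before they made the table. RNA counts and genes per cell were deposited as raw counts, mitochondrial and ribosomal RNA as a percent of the counts of a cell, and the doublet score as the authors' scds score. Labels and stages were transferred by the authors library by library, and each label came with a deposited fraction, the share of 25 nearest atlas cells that carried it (called a label score in the text). Clusters were found by the authors on a joint MOFA model of RNA and chromatin and then grouped into types.

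From this table, cells per category and library were counted and tested with edgeR 4.0.16 (quasi-likelihood, R 4.3.3) with all annotated cells of a library as its size, on the 12 libraries of days 3.5 to 5, for categories with 10 or more cells. A group was each day and condition, the contrast was the mean of WT days 4.5 and 5 minus WT day 4, and p-values were adjusted over each kind of annotation (threshold 0.05). Log2 changes are given ± SE, where the SE was worked back from the change and the F statistic of its edgeR test. Nothing in the labels says that the libraries of a day came from more than 1 culture per experiment. Without the block, p-values therefore measure the spread between 2 experiments, taken from the days with 2 libraries. The block takes out 1 difference between the experiments, assumed common to all groups. Its p-values measure only how far that difference varied among the groups with 2 libraries. The experiments, separate differentiations per the study's methods, pair the libraries. The table's own replicate column numbers the day 5 libraries 1, whereas GEO's labels place them in the second experiment. The labels were used, and every exp2 difference and blocked value rests on them. Correlations of the deviations from group means between groups with 2 libraries ranged from -0.08 to 0.51 for atlas labels, 0.12 to 0.67 for extended labels, -0.37 to 0.90 for stages, 0.11 to 0.77 for clusters and 0.18 to 0.81 for types, and the fit with the block is given beside the results it changed.

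Labels at 1% or more of a WT library or past the test were named, and every stage, type and cluster was described. The members, label groups and tests were chosen with earlier results of these data known. Measures per cell are library medians, and label or type values needed 20 or more cells. Alternatives were TMM factors, DESeq2 1.42.0, limma 3.58.1 on arcsine square root shares, no filter, the block, WT libraries only, deeper cells only, label scores of 0.5 or more, means for medians, and each library left out in turn. The fit without the block was tested on simulated data with a set spread. All simulated libraries had the same base shares, apart from the changes set in the later WT libraries. The real days and conditions differed far more, and the block was not simulated. The rates that follow hold for that setting and need not hold for the fits reported. For atlas labels, true log2 changes of 2 and 3 were called in 27.95% and 54.7% of cases, and no change in 0.471%. For stages these rates were 47.3%, 90.7% and 3%. A label that did not pass may therefore still have changed. Tables were handled with Python 3.11.15, numpy 2.4.6 and pandas 2.3.3, intervals computed with scipy 1.17.1 and plots drawn with matplotlib 3.10.9.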

Additional observations from a re-analysis of the deposited data

Results flagged for a closer look

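In each case named here the pair of exp1 moved one way and the pair of exp2 the other, and with 1 pair per experiment the difference between them was not tested. The median RNA count per cell differed by -7499 between day 4.5 and day 4 in exp1 and by 1628.5 between day 5 and day 4 in exp2. The median number of genes per cell differed by -970 and 224. The mean stage of cells with the ExE mesoderm label differed by 0.195 days in exp1 and by -0.204 days in exp2. Allantois Precursor and its only cluster, cluster 12, differed by 4.64 percentage points in exp1 and by -3.18 points in exp2. No group had more than 2 libraries, so single libraries could not be tested for standing apart.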

How the results depend on the processing

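The number of categories called depended on the model. With the experiment as a block, 8 atlas labels, 10 extended labels and 1 stage passed, against 4, 1 and 0 without, while 13 clusters, 10 types and 0 interactions did. Limma called 10 atlas labels, 13 extended labels, 4 stages and 3 interactions, and DESeq2 3 extended labels, 3 stages and 1 interaction. TMM factors gave 0 atlas labels (5 at an unadjusted p under 0.05 in edgeR) and 8 extended labels. With no filter 2 atlas labels, 0 extended labels (8 unadjusted) and 1 stage passed, and with WT libraries only 0 extended labels (8 unadjusted) and 5 stages. Deeper cells alone gave 0 atlas labels (6 unadjusted), 0 extended labels (4 unadjusted) and 7 clusters, and label scores of 0.5 or more gave 0 extended labels (6 unadjusted). A fit on the 4 WT libraries with the later days as 1 group, chosen after seeing the data, gave 0 atlas labels (4 unadjusted), 0 extended labels (4 unadjusted) and 1 stage. Means in place of medians gave differences of -1.22 points for ribosomal RNA in exp2, 0.0816 and 0.0884 for the atlas label score in exp1 and exp2, and 0.0314 for the extended score in exp2.

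Directions turned for a few categories, of which extended Allantois and Venous endothelium were more frequent later in both pairs. In the fit on 4 WT libraries the log2 change was 0.12 for cluster 12, 0.11 for Allantois Precursor and 0.017 for E7.75. It was 0.44 for E6.5 in DESeq2, and the limma interaction of ExE mesoderm was 0.16 on its own scale. TMM factors gave 0.47 for Allantois Precursor and, among extended labels, -0.73 for Allantois, -2.76 for Allantois endothelium, -2.43 for Mesenchyme and -1.06 for Venous endothelium. Extended Mesenchyme was at -0.045 with WT libraries only and -0.22 at scores of 0.5 or more, and Allantois endothelium at -0.031 in deeper cells.

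With each of the 12 libraries left out, the number called ranged from 2 to 4 for atlas labels, 0 to 2 for extended labels, 0 to 5 for stages, 3 to 12 for clusters, 4 to 10 for types and 0 to 0 for interactions. Log2 changes that turned ranged from -1.57 to 0.89 for cluster 12, -1.56 to 0.89 for Allantois Precursor, -1.55 to 0.28 for Blood progenitors 1, -2.14 to 0.36 for Mesenchyme, -0.63 to 4.64 for extended Mesenchyme, -0.19 to 0.55 for Allantois endothelium, -0.70 to 0.50 for E7.75, -1.30 to 0.20 for the Allantois interaction and -0.80 to 0.54 for that of ExE mesoderm. Over the named categories 758 such values kept direction and call, 51 lost the call, 21 gained it and 16 turned. Under the other settings these numbers were 466, 36, 67 and 13. The cause of these changes was not tested. No cell was mapped to mixed gastrulation, so the alternative for such cells gave no value. The 445 cells of day 4.5 and 739 of day 5 limit what rare labels can show.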

Other observations

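The name of the atlas cell closest to each cell was deposited but enters no label share. At day 4 the closest cells of 1443 cells in exp1 were 485 distinct atlas cells, and those of 2818 cells in exp2 were 798. At day 4.5 they were 333 for 445 cells, and at day 5 345 for 739 cells. The atlas cell used most often was closest to 5.41% and 6.42% of cells at day 4 of exp1 and exp2, to 3.15% at day 4.5 and to 9.47% at day 5.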
